A study of Mus musculus with 12 samples.

Results

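The 9 genes of the mevalonate pathway followed here encode the enzymes that lead from acetyl units to lanosterol: Hmgcs1, Mvk, Pmvk, Mvd, Idi1, Fdps, Fdft1, Sqle and Lss. They were chosen by symbol, 9 of the 22552 genes in the deposited table. RNA sequencing had been done on 12 samples from C57Bl/6 mice, 6 of cultured myoblasts (the cells that fuse into muscle fibres) and 6 of striated muscle. The mice lacked the lamin B receptor (labelled LBR_KO), lacked lamins A and C (labelled LMNA_KO) or were wild type, and knockouts and wild types of a litter came from heterozygous parents. Expression was given as FPKM, fragment numbers scaled by transcript length and by library size, in 7 columns, a column for each group. The Lbr-knockout and Lmna-knockout columns of each tissue and the wild-type muscle column each stood for 2 samples, and the wild-type myoblasts of the Lbr litter and of the Lmna litter for 1 sample each. No column therefore has an error of its own. Age, sex and the deleted stretch of each gene are not stated in the labels.

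The mevalonate pathway builds isoprenoid units from acetyl-CoA and is the only source of newly made cholesterol in animal cells. Its early enzymes make isopentenyl diphosphate, Idi1 and Fdps turn that into farnesyl diphosphate, and Fdft1, Sqle and Lss commit it to sterols. Farnesyl diphosphate also supplies the lipid anchor of prelamin A and of B-type lamins. Transcription of the pathway is driven by SREBP2, which is released when membrane sterol is low. The lamin B receptor is at once a lamina-binding protein and a sterol C14 reductase. That enzyme acts after lanosterol, so the genes described here lie upstream of its reaction.

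The targeted genes were examined first. Lbr was at 16.1 FPKM in its litter's wild-type myoblasts and 7.71 in Lbr-knockout myoblasts, and at 11.8 and 1.87 FPKM in wild-type and Lbr-knockout muscle. Lmna was at 147 and 18.5 FPKM in wild-type and Lmna-knockout myoblasts of its litter, and at 59.5 and 22.6 FPKM in wild-type and Lmna-knockout muscle. Lbr transcript was thus lower but not gone in the Lbr-knockout myoblasts. The labelled cell types were checked against markers. All 7 myoblast markers had values above 0 in the myoblast columns, but all except the adhesion gene Ncam1 were higher in muscle. In myoblasts Ncam1 was at 56.5 to 73.3 FPKM, the filament gene Des at 18.7 to 85.2 and Itga7 at 3.04 to 4.31. The muscle transcription factor Myod1 was at 2.09 to 5.51, Cdh15 at 0.50 to 1.22, Myf5 at 0.19 to 0.44 and Pax7 at 0.15 to 0.27. In muscle Ncam1 was at 12.4 to 14.9 FPKM, Myod1 at 16.4 to 18.1, Cdh15 at 7.10 to 8.79, Myf5 at 3.21 to 3.76 and Pax7 at 1.28 to 2.10. The 7 fibroblast markers summed to 2601 to 2948 FPKM in the myoblast columns and 1664 to 1770 FPKM in muscle. They were not uniform. The collagen gene Col1a1 stood at 1027 to 1151 FPKM in myoblasts against 426 to 459 in muscle, and Thy1 at 250 to 434 against 8.91 to 16.0. Dcn stood at 20.3 to 40.2 FPKM in myoblasts against 254 to 287 in muscle, and Lum at 0.30 to 2.42 against 51.1 to 91.4. The 10 macrophage and leukocyte markers summed to 379.8 FPKM in the Lbr litter's wild-type myoblasts and to 1131 to 1373 FPKM in the other 3 myoblast columns, with none of them at 0. In muscle the 8 fibre markers summed to 46415 to 62906 FPKM. Depth had to be estimated from the spacing of low values. For a transcript of 2 kb, 1 FPKM corresponded by this estimate to about 23.8 to 33.6 fragments for myoblasts but 3.77 to 8.43 for muscle. It was lowest in Lmna-knockout muscle. The number of genes at 0 had another order, at 4425, 4171 and 3795 in wild-type, Lbr-knockout and Lmna-knockout muscle, the last being the fewest of any column. How 2 samples became 1 column is not known, so the spacing need not equal 1 fragment of the column.

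Hmgcs1, which encodes the cytosolic HMG-CoA synthase, was listed at 0 in all 7 columns. So were 1270 of the 22552 genes in all. Among them were Taf1a, a subunit gene of an RNA polymerase I factor, and Vamp7, a vesicle fusion gene, both of which cells use widely. The Hmgcs1 row was read as not estimated, a reading that was not tested. That left 8 members, all of which passed a minimum mean of 1 FPKM in each tissue.

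In myoblasts Sqle was the most abundant member and Mvd the least. Sqle, the squalene epoxidase that carries out a rate-limiting oxygenation, stood highest in each of the 4 myoblast columns, at 39.99 and 43.0 FPKM in wild-type and Lbr-knockout myoblasts of the Lbr litter and 38.2 and 35.7 FPKM in wild-type and Lmna-knockout myoblasts of the Lmna litter. In the wild type of the Lbr litter it lay above 90.2% of the genes with a value above 0. Fdft1, the squalene synthase, stood at 30.2 to 32.4 FPKM, and its 4 values differed by less than those of any other abundant member. Mvd, the decarboxylase that yields isopentenyl diphosphate, was the lowest member in each myoblast column, at 5.73 to 6.63 FPKM. Between these extremes lay Idi1, the isomerase of isopentenyl diphosphate, at 15.3 to 34.5 FPKM, Fdps, the farnesyl diphosphate synthase, at 15.7 to 21.7, and Lss, the cyclase that forms lanosterol, at 10.1 to 15.01. Mvk and Pmvk, the kinases that phosphorylate mevalonate, stood at 9.54 to 11.03 and 7.84 to 9.07 FPKM. The 8 members together summed to 158.3 and 165.0 FPKM in the Lbr litter (wild type, knockout) and to 140.3 and 139.2 FPKM in the Lmna litter. The highest member exceeded the lowest by 5.80-fold to 6.66-fold.

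Muscle had another order. Fdps was the highest member in wild-type and Lbr-knockout muscle (19.8 and 18.7 FPKM), and Fdft1 in Lmna-knockout muscle (20.8 FPKM). Sqle, highest in myoblasts, stood at 1.09 FPKM in wild-type, 1.58 in Lbr-knockout and 0.664 in Lmna-knockout muscle. Lss stood at 0.932, 1.29 and 1.06 FPKM in the same order of columns, so that the ranges of Sqle and Lss in muscle overlapped. The members summed to 53.4, 60.4 and 59.3 FPKM, and Fdps alone made up 37.0% of that sum in wild-type muscle against 9.90% in the Lbr litter's wild-type myoblasts. In wild-type muscle the highest member exceeded the lowest by 21.2-fold.

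**Figure D1:**
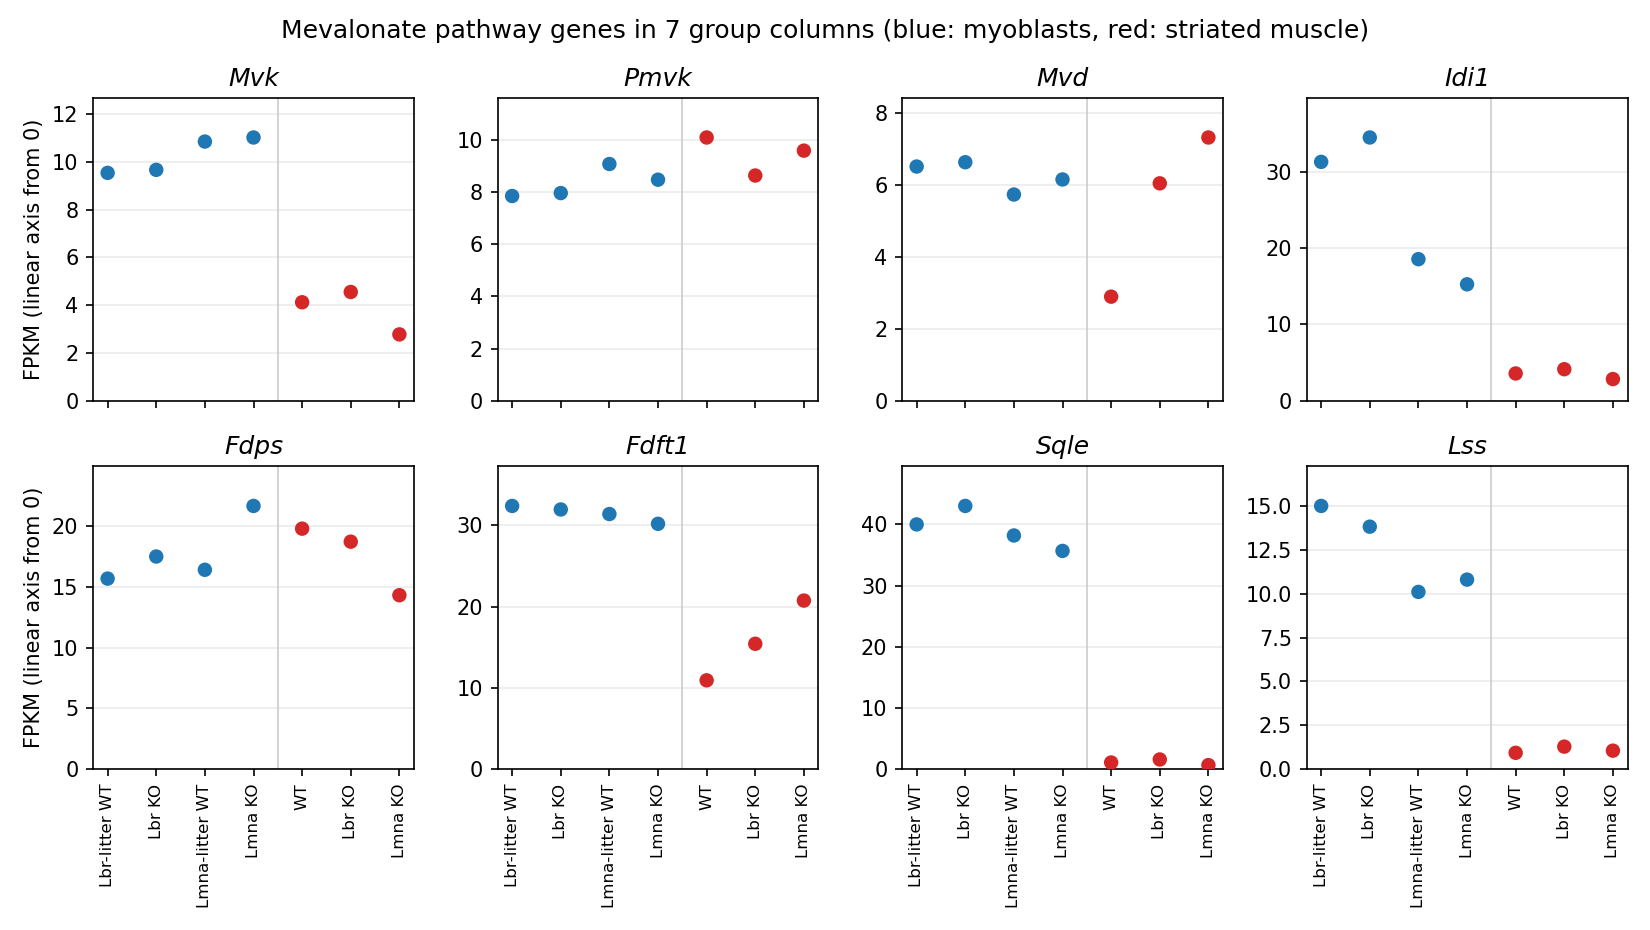
FPKM of the 8 members with values (linear axes from 0) in the 4 myoblast columns (blue) and 3 striated muscle columns (red), a point for each deposited group value and no error bars, since each group has a single column. Sqle lies at 35.7 to 43.0 FPKM in myoblasts and 0.664 to 1.58 in muscle, while the tissues overlap for Pmvk and Fdps.

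The tissues were then compared over all 7 columns with limma, a linear model with moderated variances, on log2(FPKM + 1). The model had terms for tissue, Lbr knockout and Lmna knockout, so that the error came from the litters and from knockout effects that differed between tissues. Of the 8 members, 5 fell in muscle, 0 rose and 3 did not pass an adjusted p of 0.05. That share has to be read against the whole table, in which 78.9% of 12001 genes passed the same test, 52.3% as lower and 26.6% as higher. At a 2-fold fall or more the 5 members stood beside 35.1% of all genes, and 0 members were 2-fold higher, beside 17.2%. At 4-fold or more there were 3 members, Sqle, Lss and Idi1, beside 12.8% of all genes. The members' median was -1.14, that of all genes -0.50. Fewer cells of a type and less RNA per cell cannot be told apart in such samples, and the tissues were prepared with different library kits, so that kit and tissue cannot be told apart either.

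Sqle had a log2 difference of -4.27 (SE 0.14, limma adjusted p = 1.5e-07), and 0.808% of all genes had a lower one. Its mean over the columns was 39.2 FPKM in myoblasts and 1.11 FPKM in muscle, a ratio of 35.3. Lss was lower by a log2 value of -2.68 (SE 0.17, limma adjusted p = 2.4e-06), a ratio of 11.4 between mean FPKM values. Idi1 was at -2.45 (SE 0.21, limma adjusted p = 1.4e-05), with all 3 muscle columns (3.57, 4.13 and 2.84 FPKM) below the lowest myoblast column. These 3 enzymes thus lost most of their transcript level between the tissues. Mvk, at 4.12, 4.56 and 2.78 FPKM in wild-type, Lbr-knockout and Lmna-knockout muscle, had a log2 difference of -1.23 (SE 0.17, limma adjusted p = 2.0e-04). Fdft1, at 10.9, 15.4 and 20.8 FPKM, had one of -1.04 (SE 0.19, limma adjusted p = 9.9e-04). In all 5 of these genes no muscle column reached the lowest myoblast column, an arrangement that 52% of all genes shared. The reverse arrangement, muscle above myoblasts, held for 0 members and 26.9% of all genes. Pmvk stood at 0.17 (95% interval -0.13 to 0.48, limma adjusted p = 0.26), Fdps at -0.03 (95% interval -0.44 to 0.39, limma adjusted p = 0.90) and Mvd at -0.32 (95% interval -0.81 to 0.17, limma adjusted p = 0.20). For these 3 the muscle and myoblast values overlapped. Mvd passed as lower (-0.55, limma adjusted p = 0.048 or below) when a Lmna-knockout column of either tissue was left out, and stood at 0.051 without wild-type muscle. With columns centred on their medians, which raises muscle values against myoblast values, the split over all genes became 4645 higher and 4372 lower, and Fdps and Pmvk passed the test as higher in muscle, at 0.50 and 0.70.

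**Figure D2:**
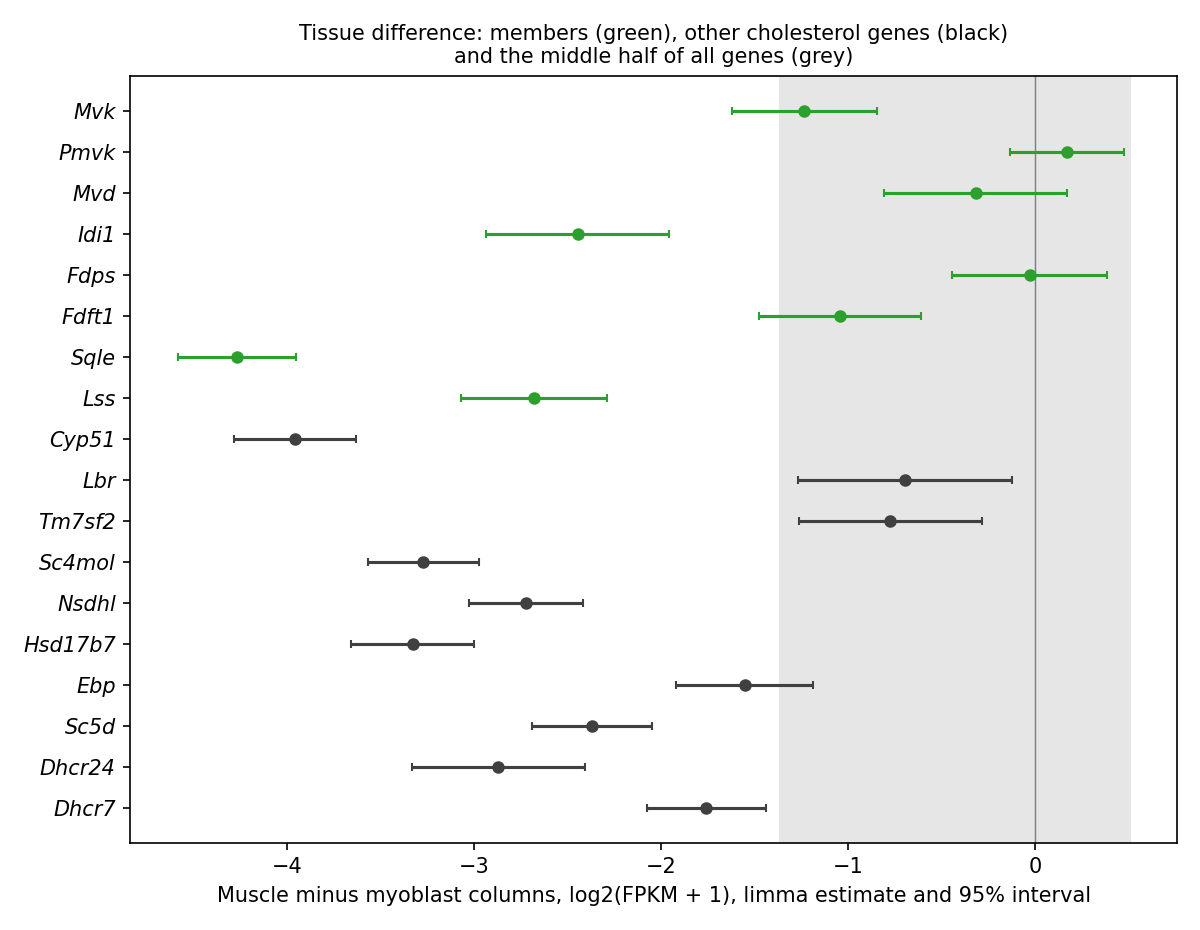
Tissue difference (muscle minus myoblasts, log2(FPKM + 1), limma estimate with 95% interval) for the 8 members in green and for the 10 genes of late cholesterol synthesis in black, with the middle 50% of all tested genes shaded. Sqle, Lss and Idi1 lie left of the shaded band, and Pmvk, Mvd and Fdps inside it.

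Other genes of sterol synthesis and its control were taken from lists. All 10 genes of late cholesterol synthesis fell in muscle by the same test (median -2.55), Cyp51, the demethylase that acts on lanosterol, by the most (-3.96). Of the 7 genes of the SREBP machinery 6 fell and 1 rose. Srebf2, which encodes SREBP2, was at -2.65, and Insig2, which retains SREBP in the endoplasmic reticulum, rose by 0.71. Of the SREBP2 targets outside the members 8 could be tested and 8 fell (median -2.41). Of 15 genes of the non-sterol branches, which use farnesyl or isopentenyl diphosphate for ubiquinone, dolichol and protein prenylation, 7 fell and 3 rose (median -0.39). The background shares given above hold for these lists too. The proliferation genes also fell, 10 of 10 with a median of -2.57, and their part in the sterol genes' difference was not tested.

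Start-site windows were available from RefSeq (build GRCm38.p6) for 6 of the 9 members, Hmgcs1, Mvk, Pmvk, Mvd, Idi1 and Lss. The deposited values rest on another build, mm9, and no coordinate was converted. The 150 bases before the start are given for Idi1 and Lss, lower in muscle by over 4-fold, and for Pmvk, which was not. Capitals mark CCAAT, the letters bound by NF-Y, and GGGCGG, the core of an Sp1 box, on either strand, so that the reverse strand reads ATTGG and CCGCCC. The windows are chr13:8885456-8885605 (plus strand) for Idi1, chr10:76531455-76531604 (plus strand) for Lss and chr3:89454391-89454540 (plus strand, the upstream of 2 listed starts) for Pmvk.
Idi1: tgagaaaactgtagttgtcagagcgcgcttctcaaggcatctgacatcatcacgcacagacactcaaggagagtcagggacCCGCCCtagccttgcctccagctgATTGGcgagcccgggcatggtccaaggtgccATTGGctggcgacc
Lss: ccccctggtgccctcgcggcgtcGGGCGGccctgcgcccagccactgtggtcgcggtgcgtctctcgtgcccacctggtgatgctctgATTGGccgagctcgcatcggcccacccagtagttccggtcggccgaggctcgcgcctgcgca
Pmvk: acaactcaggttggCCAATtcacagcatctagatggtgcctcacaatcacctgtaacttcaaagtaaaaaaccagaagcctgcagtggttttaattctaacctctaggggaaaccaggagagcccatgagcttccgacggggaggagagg

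Over the full windows of 300 bases (250 before and 50 after the start), CCAAT occurred on either strand in 6 of the 6 members and in 37.4% of 32851 windows. A member was counted if any of its starts had a match, whereas the shares count single windows. For Pmvk the upstream start had 1 CCAAT match and the downstream start 0. GGGCGG occurred in 5 of 6, all but Pmvk, and in 35.7% of windows. The letters TCACNCCAC of a sterol regulatory element were found in 1 of 6, Hmgcs1, with the match beginning at position -137 from the start on the gene's strand, and in 1.24% of windows. Mvk held 5 CCAAT matches, the most of any member. No match of a motif overlapped another. These are matches of letters and not measured binding sites, and a window without a match says nothing of the factor.

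Loss of the lamin B receptor in myoblasts left the members close to the wild type of the same litter. None of the 8 differed by 2-fold on the log2(FPKM + 1) scale, the size used in place of a test threshold where groups have 1 column each, and 2.6% of 11463 genes did (2.48% higher, 0.122% lower). The median log2 difference was 0.02, against 0.05 for all genes. Idi1 had 31.3 FPKM in the wild type against 34.5 for the knockout (log2 difference 0.14), Fdps at 15.7 and 17.5 (0.15), and Sqle at 39.99 and 43.0 (0.10). Lss was at 15.01 and 13.8 FPKM (-0.11). Mvk, Pmvk, Mvd and Fdft1 differed by less than 0.03 on the log2 scale. The 10 macrophage markers summed to 379.8 and 1170 FPKM in the same columns, and the part of those cells in the members' values was not tested. Of 11 genes of sarcomere and muscle differentiation compared, 11 were 2-fold higher in the Lbr knockout (median 1.62), beside 2.48% of all genes. The part of differentiation in the members' values was not tested either. Of the 10 late genes 0 passed 2-fold, Lbr itself being at -0.97, and of 9 SREBP2 targets 0 did.

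Loss of lamins A and C in myoblasts also left all 8 members within 2-fold of the litter's wild type, beside 1.2% of 11462 genes past it (0.602% in each direction). The median was -0.02, against 0.04 for all genes. The largest difference was that of Fdps, with 16.4 FPKM in the wild type against 21.7 for the knockout (log2 difference 0.38). Idi1 was at 18.5 and 15.3 FPKM (-0.27), and the other 6 members lay between -0.10 and 0.09. Of 11 genes of sarcomere and muscle differentiation compared, 9 were 2-fold lower (median -2.34) and 0 were 2-fold higher. The part of differentiation in the members' values was not tested. The 5 genes of prelamin A processing, the farnesyltransferase subunits Fnta and Fntb and the CAAX enzymes Rce1, Icmt and Zmpste24, had a median of -0.06 with 0 past 2-fold, the largest being Rce1 at -0.28. Zmpste24, which cuts farnesylated prelamin A, was at 42.2 and 42.3 FPKM. Its substrate's gene, Lmna, differed by the amounts given above.

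Within the myoblasts the litters differed in some members by more than either knockout differed from its own wild type. Idi1 was at 31.3 and 34.5 FPKM in the Lbr litter (wild type, knockout) and at 18.5 and 15.3 FPKM in the Lmna litter. Lss was at 15.01 and 13.8 FPKM against 10.1 and 10.8. In both genes each knockout stayed with its own litter's wild type, and the litters did not overlap. The mean log2 difference, Lbr litter minus Lmna litter, was 0.93 for Idi1 and 0.43 for Lss. Sqle (0.16), Mvd (0.13) and Fdft1 (0.06) had the same order with smaller differences. Mvk and Pmvk had the opposite order (-0.17 and -0.13), and the Fdps values of the litters overlapped. Both Lbr-litter columns were thus above both Lmna-litter columns in 5 of 8 members, beside 29.4% of 11447 genes, and below them in 2, beside 39.3%. At a mean difference of 1.5-fold or more, Idi1 was the member above, beside 5.89% of all genes, and 0 members were below, beside 5.38%.

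The same order appeared in some other sterol-regulated genes. Insig1, which retains SREBP when sterol is plentiful and is itself an SREBP target, stood at 47.5 and 42.0 FPKM in the Lbr litter against 26.5 and 28.1 FPKM in the Lmna litter. Stard4, a sterol carrier gene, stood at 11.7 and 11.5 against 5.48 and 5.61 FPKM, a mean log2 difference of 0.95. The order was not general: of 9 SREBP2 targets compared, 4 were above, 2 were below (Tmem97 and Fads2) and 3 overlapped, and of the 10 late genes 3 were above and 4 below. Genes of other lists had it too. Of 15 genes of the non-sterol branches 7 were above and 5 below, with Chml at 0.72, Pggt1b at 0.70 and Chm at 0.69. Of 7 fatty acid synthesis genes 2 were above, among them Elovl6 (0.75), and 1 was below. Between the wild types alone no member reached 2-fold (2.71% of 11504 genes did, 2.03% higher and 0.687% lower), Idi1 being at -0.72 and Lss at -0.53, Lmna litter minus Lbr litter. The macrophage marker sum was lowest in the wild type of the Lbr litter, at 379.8 FPKM, and stood at 1170 FPKM in the Lbr knockout. Mki67, a gene of dividing cells, had the order of Idi1, at 113.5 and 122.4 against 59.7 and 52.5 FPKM, while 7 of the 10 proliferation genes had the opposite order. The part of these genes and markers in the difference between litters was not tested. The litters are 1 wild-type sample and 1 knockout column each, so litter and culture cannot be told apart. In limma with a litter term, added after the step was seen, 0 of 8 members and 1 of 12001 genes (0.00833%) passed for the litter, with 3088 genes at an unadjusted p under 0.05. Idi1 had an estimate of 0.72 (limma adjusted p = 0.061) and Lss one of 0.41 (limma adjusted p = 0.21).

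**Figure D3:**
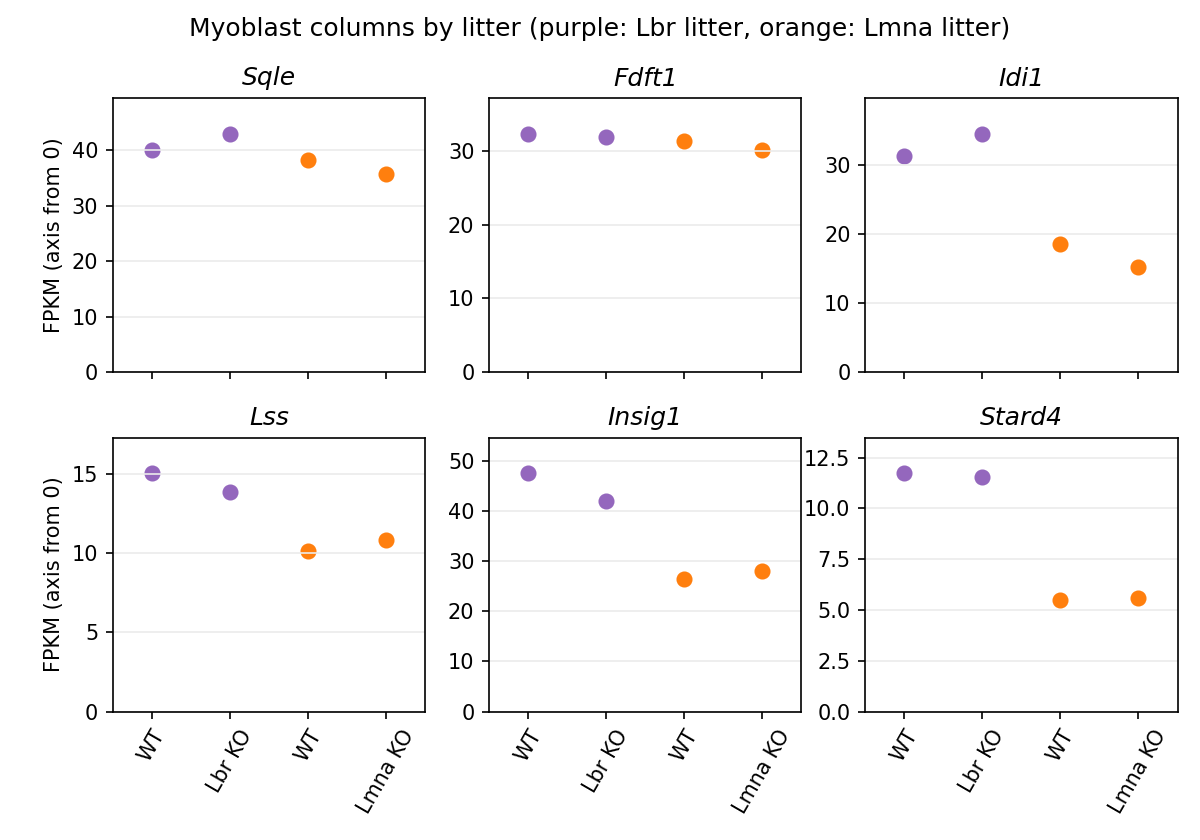
FPKM (axes from 0) in the 4 myoblast columns, with wild type and knockout of the Lbr litter in purple and of the Lmna litter in orange, for 4 members (Sqle, Fdft1, Idi1, Lss) and 2 other sterol-regulated genes (Insig1, Stard4). Idi1, Lss, Insig1 and Stard4 step down between litters, for Idi1 from 31.3 and 34.5 to 18.5 and 15.3 FPKM, while Fdft1 stays at 30.2 to 32.4.

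Because of this step, the choice of control decided the knockout difference of Idi1. Against the other litter's wild type, Idi1 was at 0.86 in Lbr-knockout and -0.99 in Lmna-knockout myoblasts, in place of 0.14 and -0.27. Lss was at 0.42 and -0.44 in place of -0.11 and 0.09, so that its sign turned in each. Fdft1, at 0.02 and -0.10, differed little with either control.

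In muscle, Mvd and Fdft1 had the largest differences among the members. Mvd was at 2.89 FPKM in wild-type, 6.04 in Lbr-knockout and 7.32 in Lmna-knockout muscle, log2 differences of 0.86 and 1.10, of which the second is past 2-fold. With a pseudocount of 5 or with columns centred on their medians the Lmna value no longer passed 2-fold, and with a pseudocount of 0.1 the Lbr value passed it too. Fdft1 was at 10.9, 15.4 and 20.8 FPKM, log2 differences of 0.46 and 0.87. In both genes the wild type was lowest and the Lmna knockout highest. The comparisons share the wild-type column, so a low value there moves both. The muscle labels name no litter, so neither muscle knockout could be set against a wild type of its own litter. In myoblasts the same genes lay within 0.09 of their own wild type.

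In Lbr-knockout muscle 0 of 8 members passed 2-fold, beside 1.56% of 12080 genes (1.3% higher, 0.265% lower), and the median was 0.20, against 0.10 for all genes. After Mvd and Fdft1 came Sqle (0.31), Lss (0.24), Idi1 (0.17) and Mvk (0.12), with Fdps at -0.08 and Pmvk at -0.20. In Lmna-knockout muscle 2.69% of 12068 genes passed 2-fold. There 1 of 8 members, Mvd, was 2-fold higher, beside 1.93% of genes, and 0 were 2-fold lower, beside 0.762%. The median was -0.16, against 0.13 for all genes. Mvk and Fdps were both at -0.44, Sqle at -0.33, Idi1 at -0.25, Pmvk at -0.07 and Lss at 0.09. The members thus lay on both sides of 0 in Lmna-knockout muscle, with enzymes of the same branch, Mvk and Mvd, on either side of the wild type. Of the 9 late genes compared in muscle, Lbr itself was 2-fold lower in the Lbr knockout (-2.16), and none passed 2-fold in the Lmna knockout. Of 8 SREBP2 targets 0 passed in either knockout, with medians of 0.19 (Lbr) and -0.22 (Lmna), and of the 5 genes of prelamin A processing 0 passed, with medians of 0.02 and 0.10.

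Low estimated counts limit these muscle values. By the spacing estimate, and if its transcript were 2 kb long, Mvd rested on about 24.4, 39.6 and 27.6 fragments in wild-type, Lbr-knockout and Lmna-knockout muscle. For the same length, Sqle in Lmna-knockout muscle rested on about 2.50 fragments, Lss on 3.98, Mvk on 10.5 and Idi1 on 10.7. The estimated fragments per FPKM, 8.43, 6.55 and 3.77, had the reverse order of Mvd and Fdft1, and their part in the result was not tested. Marker lists of other cell types are given for the same 3 columns. The 8 fibre markers summed to 62906, 58288 and 46415 FPKM, with 1 of 8 above wild type in the Lbr knockout and 2 of 8 in the Lmna knockout. Of the 7 myoblast markers 3 had the order of Mvd and Fdft1, and 4 and 3 of 7 were above wild type in the Lbr and Lmna knockouts. Their sum (788.3, 851.7 and 970.0 FPKM) was mostly Des, itself expressed in fibres, and without Des it was 57.7, 59.7 and 60.9 FPKM. Of the 7 adipocyte markers 6 were above wild type in the Lbr knockout but 1, Fabp4, in the Lmna knockout. The adipocyte sum without Fabp4 was 106.8, 295.5 and 92.8 FPKM (with it, 509.0, 758.4 and 626.5). The 8 lymphoid markers were all above wild type in both knockouts, with sums of 12.8, 51.8 and 28.5 FPKM. The 7 Schwann cell markers (7 and 6 above wild type) summed to 458.9, 961.4 and 594.2 FPKM, and the 10 macrophage markers (8 and 9 above) to 101.7, 144.7 and 128.8. The 7 fibroblast markers (2 and 3 above) summed to 1770, 1762 and 1664 FPKM. The 6 hepatocyte markers (5 and 2 above) summed to 9.77, 17.95 and 8.05, with Apoc3 at 0 in the Lbr knockout and Ttr in the Lmna knockout. The part of these cell types in the result was not tested.

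**Figure D4:**
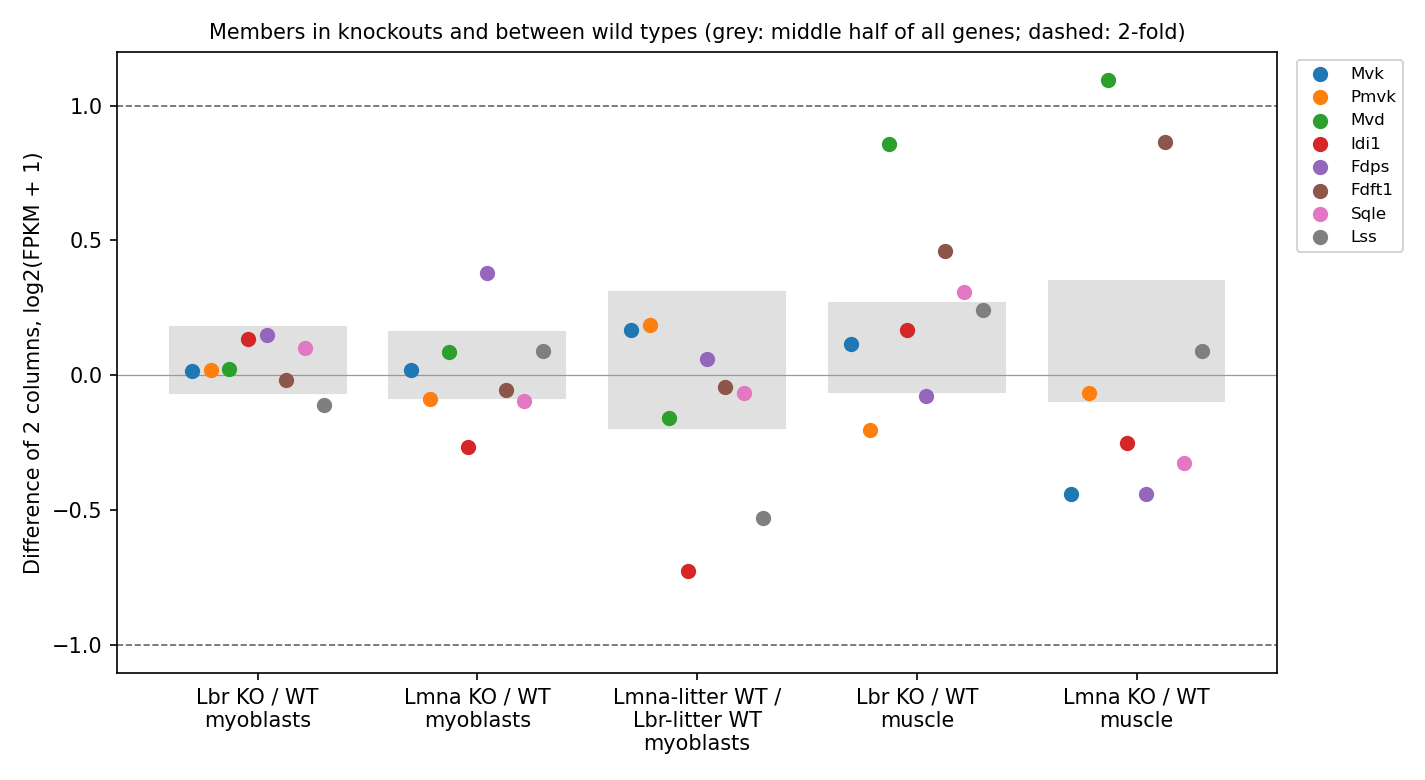
Differences of 2 columns on the log2(FPKM + 1) scale for the 8 members in each knockout against its wild type and between the wild-type myoblasts, with the middle 50% of all genes as a grey box and dashed lines at 2-fold. The myoblast knockouts lie near 0, Idi1 and Lss stand low between the wild types, and Mvd at 1.10 in Lmna-knockout muscle is the point beyond a dashed line.

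The knockout effects over both tissues were estimated in the limma fit that gave the tissue differences. For Lbr loss 0 of 8 members passed an adjusted p of 0.05, and 0 of 12001 genes did (0%), while 254 genes had an unadjusted p under 0.05. The members' estimates ran from -0.13 to 0.39 with a median of 0.17 (all genes 0.06), and the smallest unadjusted p was 0.16, for Mvd. For Lmna loss 0 of 8 members and 1 of 12001 genes (0.00833%), the pseudogene Atp6v0c-ps2, named after its value was seen, passed in limma, with 447 genes at an unadjusted p under 0.05. The members' estimates ran from -0.44 to 0.46 with a median of -0.04 (all genes 0.08), and the smallest unadjusted p was 0.11, again for Mvd. This fit takes the wild-type myoblasts of both litters as alike, so the litter step enters its knockout estimates, as for Idi1 (0.33 for Lbr and -0.44 for Lmna). With a term for the litter of the myoblasts, added after the data were seen, Idi1 had estimates of 0.15 (Lbr) and -0.26 (Lmna). The members' estimates then ran from -0.10 to 0.33 for Lbr (median 0.14) and from -0.26 to 0.51 for Lmna (median -0.04), and 0 members passed for either, of 0 and 1 genes in limma (620 and 711 at an unadjusted p under 0.05). Without the litter term the 95% intervals leave room for moderate effects: for Mvd they reached from -0.20 to 0.97 for Lbr and from -0.12 to 1.04 for Lmna, and for Sqle from -0.15 to 0.60 and from -0.60 to 0.15. Lbr itself had an estimate of -1.48 in the Lbr knockout and did not pass either (limma adjusted p = 1.00), and Lmna had one of -2.14 in the Lmna knockout (limma adjusted p = 0.48). The fit thus left even the targeted genes uncalled.

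Whether the knockouts acted differently on the members in muscle and in myoblasts was asked with the wild-type myoblasts as 1 group, whose spread, with 1 residual degree of freedom beside the variance prior, stood for that of every column. No member passed for either gene, and 2 of 12001 genes did for each (0.0167%). These were Gm9846 and Krt18 for Lbr and Gm9846 and Abhd1 for Lmna, named after their values were seen. The largest member differences, muscle minus myoblasts, were those of Mvd for Lmna (1.09, SE 0.45, unadjusted p = 0.037, limma adjusted p = 0.9986) and of Fdft1 for Lmna (0.94, SE 0.46, limma adjusted p = 0.9986).

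The members' variation around their tissue means was mixed. With each gene centred on its tissue mean, 11 of the 28 pairs of members had a positive Pearson correlation over the 7 columns of both tissues together, and the median was -0.12. Mvd and Fdft1 (0.95) and Idi1 and Lss (0.86) were the most alike, and Pmvk and Lss the least (-0.89). The points share libraries, and the values describe 7 columns without a test. The mean profile of the 8 members was highest in Lbr-knockout muscle (0.13) and lowest in wild-type muscle (-0.10). Of 4085 genes compared, those most like it over the 7 columns were Mipol1 (r = 0.98), Tigd2 (0.97), Megf9 (0.96), Atpbd4 (0.95), Strn (0.95), Bbs12 (0.95), Nvl (0.94) and Plxnc1 (0.94).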

How the data were processed

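Total RNA was isolated with TRIZOL and purified on RNeasy columns, per the labels' protocols. These name the NuGEN Ovation kit for samples 1 to 6 and the NuGEN complete protocol for samples 7 to 12, in listing order the myoblast and the muscle samples. The FPKM values were calculated by the authors and deposited with 1 column per group. Per the submitters' processing notes the build was mm9. Not given in the sources used here are the aligner, quantification tool, annotation and how 2 samples became 1 column. All 7 columns matched a group by name. The samples are biological replicates per the series' design text.

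Differences were computed on the log2 scale after adding 1 to each FPKM. Genes averaging under 1 FPKM in the tissue (over all columns for limma) were dropped, as were those at 0 in a compared column. limma 3.58.1 (R 4.3.3, variance trend) was fitted to 12001 genes with Benjamini-Hochberg adjustment, with 3 residual and 4.97 prior degrees of freedom in the additive fit and 1 and 8.42 in the fit of differences between tissues, and 2 and 5.36 with the litter term. Columns of 1 and of 2 samples were weighted alike, and each is assumed to vary like the rest. Fragment numbers were estimated from the commonest spacing of length-scaled values over 4179 genes with a single GENCODE M21 transcript, and whole reads could not be recovered. Genes most like the members had a mean of at least 1 FPKM in both tissues and an SD of centred values of at least 0.2, small RNAs and predicted genes left out. All members were named in each comparison, with list genes past 2-fold or the largest differences. Some list genes are not reported here. The members and lists were chosen with earlier results of these data known. Other settings tried were a pseudocount of 0.1 or 5, a minimum of 5 FPKM or none, 2 rescalings, the other or both wild types, no variance trend and each column left out.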

Additional observations from a re-analysis of the deposited data

How the results depend on the processing

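The columns carry no replicate numbers, but litter pairs the myoblast columns. With litter as a replicate block, an alternative added after the data were seen, 5 members and 10012 genes passed between tissues, and 0 members for Lbr or Lmna loss, of 0 and 1 genes. No call of a member changed. Litter could not be fitted in the comparison of effects between tissues, where no residual degree of freedom is left. In the comparisons of 2 columns, the members at 2-fold changed from 0 to 1 (Mvd) in Lbr-knockout muscle with a pseudocount of 0.1, and from 1 to 0 in Lmna-knockout muscle with a pseudocount of 5 and with columns centred on the median. There the members' median was 0.40 in place of -0.16 with a mean of at least 5 FPKM, which leaves 4 members. Between tissues, 5 or 6 members passed when each column was left out, of 8216 to 9440 genes, and 6 passed with all columns rescaled to a common sum. Members near 0 changed sign: Pmvk was at -0.17 after that rescaling, Mvd at 0.21 and Fdps at 0.50 with median centring, and with a column left out Mvd ran from -0.55 to 0.051 (without wild-type muscle), passing as lower without a Lmna-knockout column, and Fdps from -0.24 to 0.20. With a column left out, 0 to 1 genes passed for Lbr loss and 1 to 4 for Lmna loss, and 0 members for each. Genes whose Lbr and Lmna effects differed between tissues numbered 6 and 8 with a pseudocount of 0.1, 0 and 0 with a pseudocount of 5 or no filter, 9 and 29 with a mean of at least 5 FPKM, and 1 and 1 without the variance trend. For Lmna there was 1 after rescaling. No member was among them under these alternatives. The cause was not tested. Low estimated fragment numbers limit Sqle and Lss in muscle, and Mvk and Idi1 in Lmna-knockout muscle.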

Other observations

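Genes on the other side of sterol balance, those induced by the oxysterol receptors LXR and those of efflux and storage, were also measured in muscle. In Lmna-knockout muscle, 2 of 8 such genes were 2-fold higher and 0 lower, beside 1.93% of all genes higher and 0.762% lower. Their median was 0.67, against 0.13 for all genes. Abca1, the cholesterol efflux pump, was at 6.18 FPKM in wild-type, 8.46 in Lbr-knockout and 17.96 in Lmna-knockout muscle, log2 differences of 0.40 and 1.40. Mylip, a ubiquitin ligase gene induced by LXR, was at 7.69, 10.8 and 21.1 FPKM (0.44 and 1.35). The remaining 6, among them Apoe and Lpcat3, lay between 0.34 and 0.91 in Lmna-knockout muscle. In Lbr-knockout muscle 0 of 8 passed 2-fold, beside 1.56% of all genes, and the median was 0.38, against 0.10 for all genes. Both comparisons use the same wild-type column, and estimated depth was lowest in Lmna-knockout muscle. Of the 10 macrophage markers 8 were above wild type in the Lbr knockout and 9 in the Lmna knockout. The part of macrophages in these values was not tested.

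Of 8 fatty acid synthesis genes in Lmna-knockout muscle, 1 was 2-fold higher, beside 1.93% of all genes, and 1 was 2-fold lower, beside 0.762%. Scd1, the stearoyl-CoA desaturase, was at 62.98 FPKM in wild-type, 66.9 in Lbr-knockout and 10.3 in Lmna-knockout muscle (log2 difference -2.51 for Lmna). Acacb, the acetyl-CoA carboxylase of mitochondria, was at 17.7, 23.8 and 37.1 FPKM (1.03 for Lmna). Fasn, the fatty acid synthase, was at 4.81, 5.13 and 5.01 FPKM. Of the 7 adipocyte markers 6 were below wild type in Lmna-knockout muscle, where their median log2 difference was -0.21, and Fabp4 was above it (402.2, 462.9 and 533.7 FPKM in the 3 columns). Their part in these values was not tested.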
